A study of Caenorhabditis elegans with 4 samples.

Results

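The pkg-2 and hyl-1 region of chromosome IV held 5 of the 611 thresholded peaks recovered with CEY-2, and all 5 lay in 2 long introns of pkg-2. None lay in hyl-1. The region was taken from 10 kb before to 10 kb after the span of both genes, at 8510894 to 8554412 of build ce11 (WBcel235). Its peaks were selected on the position of their summits in the deposited lists, and the region itself was picked because of them. Their number, place and height are therefore given as a description, without a test.

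The data came from chromatin immunoprecipitation followed by sequencing (ChIP-seq) in whole L4 hermaphrodites of Caenorhabditis elegans. Their strain, OP358, carries the allele unc-119(tm4063) III and the transgene wgIs358, which makes CEY-2 with a GFP-FLAG tag at its C-terminus, and an antibody against GFP was used. All 4 libraries carried the tagged protein and the unc-119 allele and form 1 group of 3 biological replicates, because replicate 2 consisted of 2 technical libraries merged by the authors. All of them come from 1 transgenic line, and libraries without the transgene were not analysed here. The 5 ce11 lists comprise 1 list for each replicate, 1 for the pooled replicates and 1 thresholded by the irreproducible discovery rate (IDR). IDR measures how well peak ranks agree between lists. The lowest signal of the IDR list was 35.93, that of pooled rank 611, and its peaks need not rank high in every replicate. The lists hold 30000, 30000 and 21628 peaks for replicates 1, 2 and 3, 25484 for the pool and 611 for IDR. No read counts were given, so the depth of each library and the counting error of each peak are unknown.

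CEY-2 belongs to the Y-box proteins, which carry a cold shock domain and are known chiefly for binding RNA in the germline. pkg-2 (WBGene00015650) encodes a cGMP-dependent protein kinase, an enzyme that phosphorylates other proteins when cGMP made by guanylate cyclases binds to it. hyl-1 (WBGene00002043) encodes a ceramide synthase, which joins a fatty acid to a sphingoid base and so makes the core of sphingolipids. Both genes lie on the plus strand, pkg-2 at 8520894 to 8538187 and hyl-1 just downstream at 8539123 to 8544412. A ChIP-seq peak marks DNA recovered with the tagged protein and does not tell direct contact from recovery through other molecules.

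The 5 thresholded peaks are called A to E here, in the order of the chromosome. Each pooled summit is shown with 100 bases on either side because that DNA has the highest signal of the region, and the DNA around the highest peak of hyl-1 is shown for comparison. The sequences are the plus strand of chromosome IV in RefSeq's WBcel235 sequence, 5′ to 3′. Capitals mark the repeat GAGAGA, the E-box word CACGTG and the GATA-type word TGATAA on either strand, so that TCTCTC is GAGAGA and TTATCA is TGATAA on the minus strand.
Peak A, chrIV:8527668-8527868: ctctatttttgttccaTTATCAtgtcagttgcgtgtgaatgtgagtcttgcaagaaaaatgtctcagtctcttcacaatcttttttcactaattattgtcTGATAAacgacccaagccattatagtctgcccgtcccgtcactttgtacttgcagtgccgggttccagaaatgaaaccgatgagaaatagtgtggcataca
Peak B, chrIV:8528546-8528746: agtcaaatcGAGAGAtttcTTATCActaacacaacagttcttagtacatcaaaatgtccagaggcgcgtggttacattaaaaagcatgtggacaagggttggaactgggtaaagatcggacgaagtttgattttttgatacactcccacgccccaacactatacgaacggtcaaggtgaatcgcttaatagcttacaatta
Peak C, chrIV:8529202-8529402: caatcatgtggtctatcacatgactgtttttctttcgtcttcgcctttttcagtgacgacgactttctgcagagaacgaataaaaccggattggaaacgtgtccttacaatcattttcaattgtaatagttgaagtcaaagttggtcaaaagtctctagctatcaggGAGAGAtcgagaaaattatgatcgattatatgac
Peak D, chrIV:8530650-8530850: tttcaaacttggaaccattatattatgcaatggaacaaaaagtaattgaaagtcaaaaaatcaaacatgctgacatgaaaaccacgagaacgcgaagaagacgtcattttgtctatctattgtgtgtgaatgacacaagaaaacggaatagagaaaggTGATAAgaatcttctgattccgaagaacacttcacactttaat
Peak E, chrIV:8535064-8535264: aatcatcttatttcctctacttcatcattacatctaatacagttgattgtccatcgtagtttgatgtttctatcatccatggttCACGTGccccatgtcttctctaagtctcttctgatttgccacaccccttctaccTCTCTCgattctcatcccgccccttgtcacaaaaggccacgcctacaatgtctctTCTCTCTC
hyl-1 peak, chrIV:8540412-8540612: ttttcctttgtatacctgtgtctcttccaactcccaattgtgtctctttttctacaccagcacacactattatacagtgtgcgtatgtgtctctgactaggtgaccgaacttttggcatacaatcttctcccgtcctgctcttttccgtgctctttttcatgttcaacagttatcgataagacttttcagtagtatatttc

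Peak A was the highest. Its interval was 8527695 to 8527875, 181 bp wide, with the summit at 8527768, 6874 bp downstream of the annotated start of pkg-2. Its signal, the value that the authors' peak caller gave it, was 156.63, which ranked 19 in the pooled list and 2 among the 586 nuclear IDR peaks. The remaining IDR peaks are mitochondrial. It was the highest of the 104 IDR peaks on chromosome IV, where the best peak outside the region reached 101.3. It is also 1 of 13 IDR peaks narrower than the usual width.

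Peak D, at 8530555 to 8530944 with its summit at 8530750, had a signal of 106.26, ranked 29 in the pooled list and 9 among nuclear IDR peaks. It was the second highest on chromosome IV, and peak A was 1.47 times as high. Peak E, at 8534969 to 8535358 with its summit at 8535164, had a signal of 89.93 and pooled rank 44. It ranked 23 among nuclear IDR peaks and 8 on chromosome IV. Peaks A, D and E are therefore 3 of the 30 highest nuclear peaks.

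Peaks B and C were lower and lay between A and D. Peak B, at 8528451 to 8528840 with its summit at 8528646, had a signal of 62.49 and pooled rank 109. Peak C, at 8529107 to 8529496 with its summit at 8529302, had a signal of 47.24 and pooled rank 272, close to the nuclear IDR median of 44.7. Peak A was 3.32 times as high as peak C within the same list.

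The lowest peak of the IDR length had pooled rank 611 and a signal of 35.93, and the next pooled peak had 35.9. The pooled peak of the region nearest below that threshold lay at 8531331 to 8531720, with its summit at 8531526, a signal of 32.43 and rank 788. It also lay in intron 5 of pkg-2, between peaks D and E. The 5 IDR peaks of the region thus have a further neighbour below the threshold, which ranked 7676, 668 and 293 in replicates 1, 2 and 3.

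Successive summits were 878 bp apart from A to B, 656 bp from B to C, 1448 bp from C to D and 4414 bp from D to E. The whole run from A to E spanned 7396 bp, and no other run of 5 successive nuclear IDR summits was as short. The nearest IDR summits outside the region were 468.7 kb before it, at 8042159 with signal 47.88 and rank 265, and 240.9 kb after it, at 8795340 with signal 92.13 and rank 40. The region thus stands alone on this stretch of chromosome IV. At the edges of the region, the outermost pooled summits inside were 8511045 (rank 12963) and 8554178 (rank 19093). The closest pooled summits outside lay 55 bp before the region and 1318 bp after it.

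Peaks A to D lay in intron 5 of pkg-2, at 8525261 to 8532084, and peak E lay in intron 6, at 8532159 to 8535855, numbering the gaps between exons of all transcripts. Intron 5 is 6824 bp long and intron 6 is 3697 bp long, against a median of 65 bp over 104901 introns, of which 0.251% and 0.901% are longer. The other 9 introns of pkg-2 and the 8 introns of hyl-1 held no IDR summit. Over all nuclear IDR peaks 25.6% lay in introns, 60.1% between genes and 1.19% in coding exons. All 5 intronic peaks here are placed by the lists that chose them, and nothing is read from that share.

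**Figure D1:**
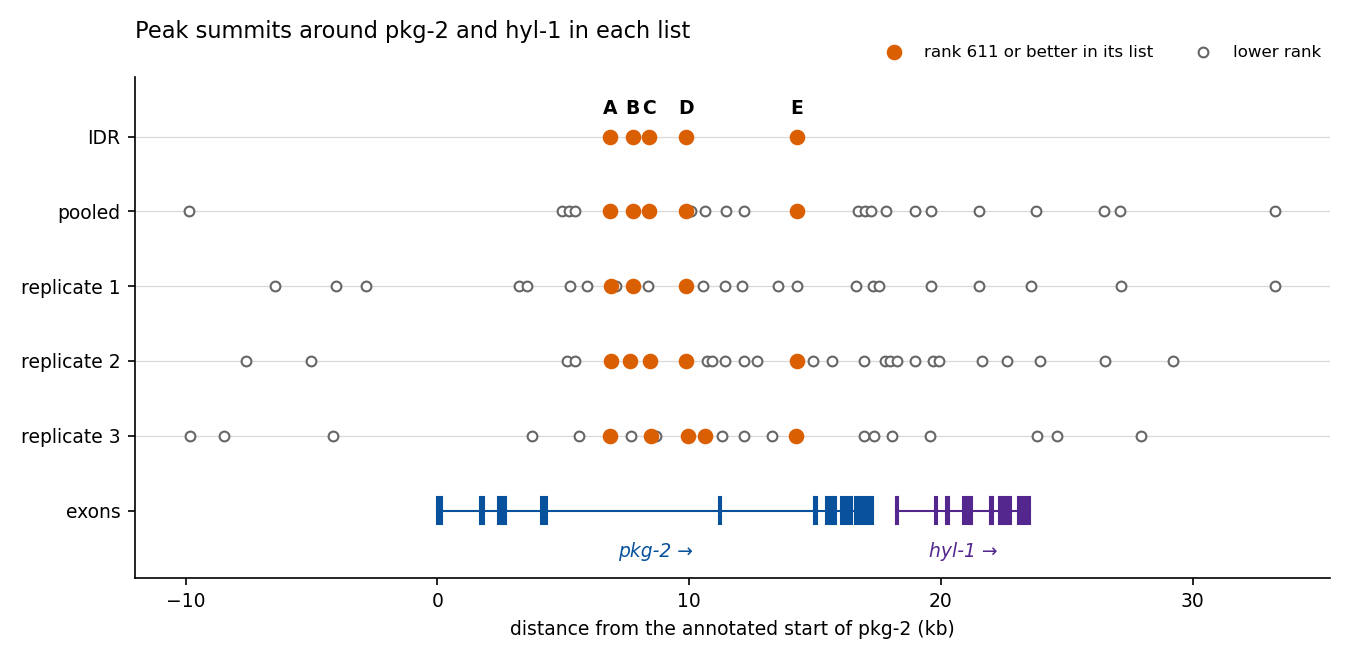
Summits in the region by list, in kb from the annotated start of pkg-2, with the exons of both genes below; filled points rank 611 or better in their own list and open points rank lower. In every list the filled points lie within the 2 long introns of pkg-2, and in replicate 1 they lie in the longer one alone. The gene hyl-1 holds open points alone.

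Within intron 5, peak A lay 2508 bp after the start of the intron and peak D 1335 bp before its end. Peak E lay 692 bp before the end of intron 6 and at -744 bp from the start of C09G4.2b, the short pkg-2 transcript, which begins at 8535908. Relative to the start of hyl-1, peak A lay at -11355 bp, peak D at -8373 bp and peak E at -3959 bp. By the outermost annotated start of each gene, peaks A, B and C were closer to pkg-2 and peaks D and E closer to hyl-1. From the start of C09G4.2b, peak D lay at -5158 bp and peak E at -744 bp. With transcript starts counted, D and E were thus also closer to pkg-2. By gene body, all belong to pkg-2. Which gene, if either, the recovered DNA acts on was not measured.

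All 5 peaks had a summit within 200 bp in each of the 3 replicate lists. Over the whole IDR list, 89.0% of summits did so, and over the pooled list 10.6%. Since the IDR and pooled lists come from the same replicates, the count is a description. Of the 24 pooled summits in the region, 11 recurred in all 3 lists, which leaves 6 of the 19 outside the IDR list.

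The ranks differed more than the positions. Signals of different lists are on different scales, so ranks within each list are set side by side. Peak A ranked 22, 22 and 28 in replicates 1, 2 and 3, with signals of 58.52, 73.99 and 28.51. Peak D ranked 26, 43 and 47, with signals of 46.19, 43.57 and 21.48. These 2 peaks stood near the top of every list.

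Peak E ranked 743, 51 and 29, with signals of 14.6, 41.41 and 28.31. It was high in replicates 2 and 3 and far lower in replicate 1, where another summit of similar height lay 731 bp before it, at 8534433 with signal 15.19 and rank 637. Peak B ranked 423, 110 and 667, with signals of 16.91, 31.84 and 9.22. Peak C ranked 1745, 188 and 311, with signals of 11.77, 27.2 and 12.06. Replicate 2 gave peaks B and C their best ranks. What the spread between replicates comes from was not tested.

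**Figure D2:**
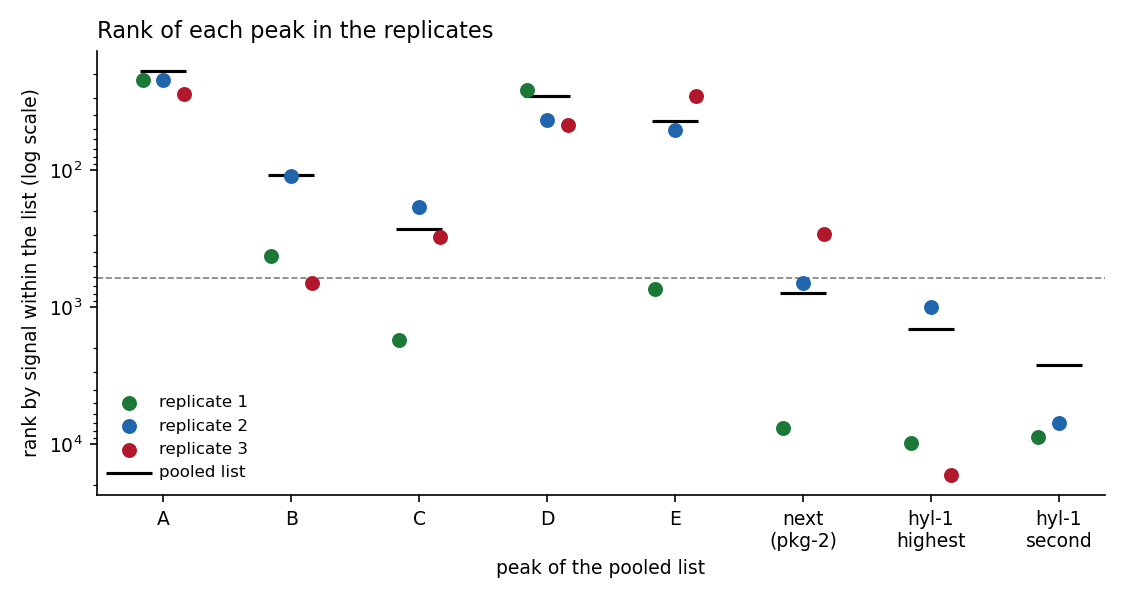
Rank by signal within each list on a log scale, best at the top, for peaks A to E, the next pkg-2 peak under the threshold and the highest and second pooled peaks of hyl-1; points are replicates, black bars the pooled list and the dashed line rank 611. Peaks A and D lie above the line in all 3 replicates, while replicate 1 places C and E below it.

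When each replicate list was limited to its own 611 highest peaks, peaks A and D were in all 3 and peaks B, C and E in 2. The share of nuclear IDR peaks in all 3 was 19.8%. Replicate 1 held 3 of the 5 peaks among its highest 611, replicate 2 all 5 and replicate 3 held 4. In replicate 3 the next pkg-2 peak under the pooled threshold, with rank 293 and signal 12.29, took a place that peak B missed. That peak ranked 7676 in replicate 1 and 668 in replicate 2.

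The replicate summits lay close to the pooled ones. Over 15 pairs of replicate and pooled summits the median distance was 29 bp, equal to the 29 bp median over 1697 such pairs of all nuclear IDR peaks. Peak E was the tightest, with replicate summits 0, 4 and -29 bp from the pooled one. The largest distance was -106 bp, for peak B in replicate 2, and 14 of 15 were within 100 bp.

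**Figure D3:**
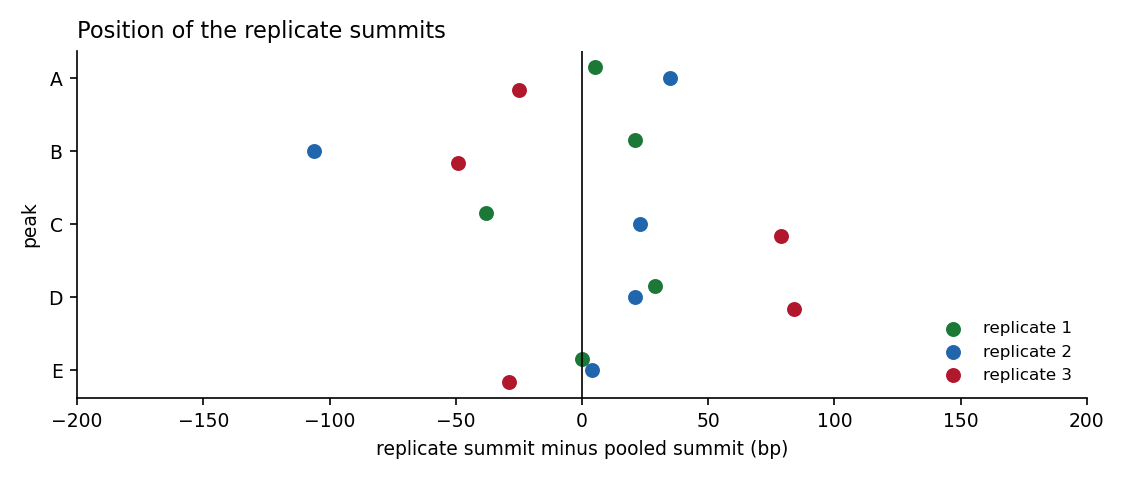
Distance in bp of each replicate summit from the pooled summit of peaks A to E, negative towards the start of pkg-2. Of 15 points, 14 lie within 100 bp, and the one outside is peak B in replicate 2 at -106 bp.

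In the full lists the region was also dense. The pooled list had 24 summits in the 43.5 kb, or 5.51 per 10 kb against 2.67 over chromosome IV. The replicate lists had 25, 28 and 22 summits, or 5.74, 6.43 and 5.06 per 10 kb. Of the pooled summits, 15 lay in pkg-2 and 3 in hyl-1, and 9 were in intron 5 of pkg-2. The IDR list kept 5 of the 24, beside 2.4% of the whole pooled list. The pooled counts of the region and of pkg-2 include these 5 peaks, and 19 pooled summits of the region were outside the IDR list. The gene pkg-2 is 17.3 kb long and hyl-1 5.29 kb, so their counts alone do not compare density.

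In hyl-1, the highest pooled peak lay at 8540317 to 8540706, with its summit at 8540512 in intron 1, 151 bp upstream of the start of transcript C09G4.1a at 8540663. Its signal was 25.85 at pooled rank 1443. It ranked 9750, 1003 and 16815 in replicates 1, 2 and 3, with signals of 6.95, 15.55 and 2.47. Replicate 2 alone placed it near the top. The second pooled peak of hyl-1, in intron 5 at 8542418, had a signal of 20.38 and rank 2628, and replicate 3 had no summit within 200 bp of it. Both hyl-1 peaks were lower than the 5 thresholded peaks and the next peak of pkg-2, and higher than the other pooled peaks in introns 5 and 6, the best of which had a signal of 18.28.

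The genes on the far side were low in the pooled list. The 10 kb before pkg-2 hold mes-6, which encodes a component of the Polycomb complex PRC2, cks-1, which encodes a subunit of cyclin-dependent kinases, and C09G4.4. The pooled list has 1 summit there, of rank 12963. The 10 kb after hyl-1 hold 4 pooled summits, the best of rank 6201.

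Windows of the same length were counted along the nuclear genome in steps of 1 kb, as a frame for these numbers. Of 100014 windows, 80.8% held no IDR summit, 14.9% held 1 and 0.125% held 5, the highest number. The windows with 5 formed 5 distinct stretches, and the others lay on chromosomes II, V and X. Their best peaks ranked 28 to 51 in the pooled list, against 19 here. At least 24 pooled summits occurred in 2.19% of windows, whose median was 10.

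Long introns give another frame. They were taken as the gaps between a gene's own exons, whatever other genes lie in them. Of 265 introns at least as long as intron 5 of pkg-2, 9.81% held an IDR summit, and 239 held none. The most in an intron of another gene was 3, and that of pkg-2 held 4. As many pooled summits as its 9 occurred in 7.17% of these introns, whose median was 2. Intron 5 is thus at the upper end in IDR summits and among the upper ones in pooled summits, and it was singled out because of them.

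**Figure D4:**
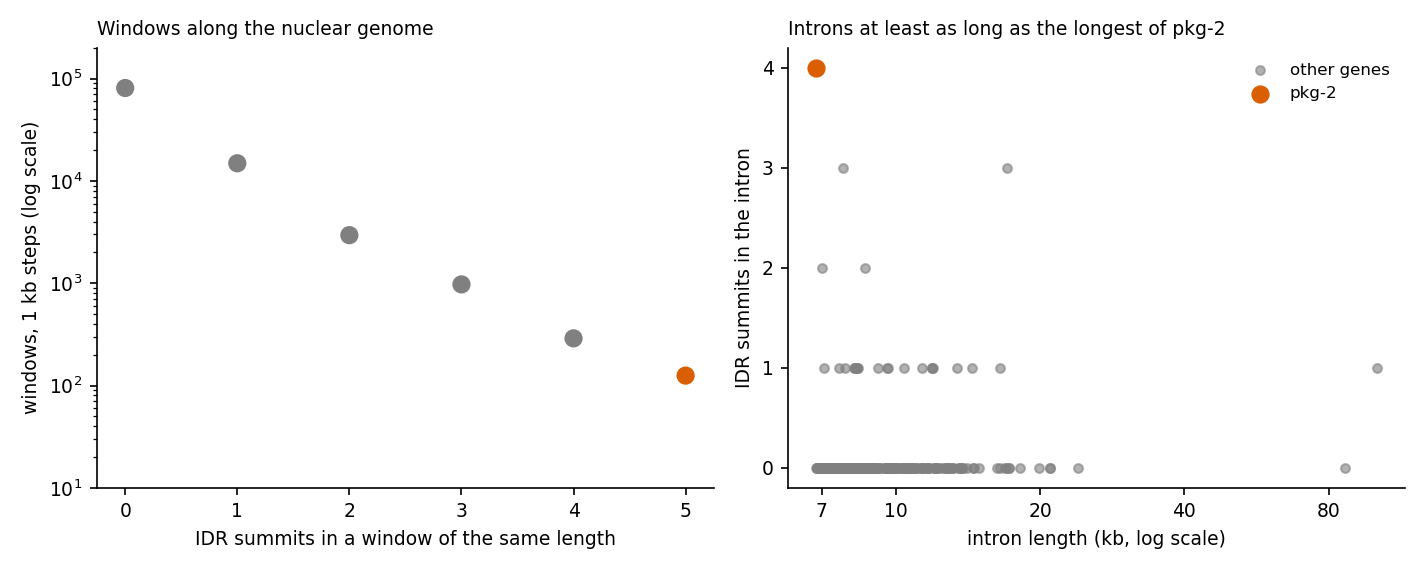
Left, number of windows of the region's length by the IDR summits they hold, on a log scale, with the class of the pkg-2 region (5) in orange; right, IDR summits against length in kb for the 265 introns at least as long as intron 5 of pkg-2. The class with 5 holds 125 windows, and the pkg-2 intron alone holds 4.

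Few genes showed the same pattern. Here a summit counted as intronic only where it lay in no exon of any gene. Of 19973 nuclear coding genes, 124 had an IDR summit in an intron, 20 had at least 2, 5 had at least 3 and pkg-2 alone had 5. The genes most like it by the number of intronic IDR summits, with ties ordered by signal, were zfp-1, pqn-41, let-526, ifbp-1 and D2023.3. zfp-1, which encodes a zinc finger chromatin regulator, had 4 over 7304 bp, the highest with signal 75.0 and rank 68. pqn-41 had 3 over 1434 bp with a best signal of 103.7. let-526, which encodes a subunit of the SWI/SNF chromatin remodelling complex, had 3 and a best signal of 56.6, and ifbp-1 had 3 and 46.0. D2023.3 had 2 and a best signal of 96.5. None of the 5 reached the signal of peak A, which few peaks could, since it ranks 2 among the 586 nuclear IDR peaks. When summits in exons of other genes inside an intron were counted too, 6 genes had at least 3 and pkg-2 alone had 5. let-526 then had 4, and T28B11.1 entered with 3 and a best signal of 64.3 in place of D2023.3.

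The sequence around the summits was searched on both strands, within 100 bp, for 5 words. These were the repeat GAGAGA, the E-box word CACGTG, the GATA-type word TGATAA, the box CCAAT and the TATA-box word TATAAA. A match describes letters and not a binding site. GAGAGA was found at 3 of the 5 peaks, against 42.8% of nuclear IDR summits, 15.0% of pooled ones and 8.53% of intron tiles of the same length on chromosome IV. It lay at B, at C and at E, where 3 copies were found, 2 of which overlap. TGATAA was found at 3 of 5, against 41.3%, 24.1% and 17.5%. It lay at A, with 1 copy starting at the summit base and 1 copy 84 bp before it, at B and at D.

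CACGTG was found at 1 of 5, against 19.8% of nuclear IDR summits, and lay 16 bp before the summit of peak E. CCAAT was found at 1 of 5, peak C, against 28.7%, and TATAAA at none, against 17.7%. Every peak had at least 1 of the first 3 words, as did 76.1% of nuclear IDR summits. Peaks B and E had 2 of them, as did 24.6%. The shares here rest on 5 sequences and none of the words is shared by all. The hyl-1 peak had none of the first 3 words and 1 copy of CCAAT.

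GC content of the same stretches was 40.8% at A, 40.8% at B, 37.8% at C, 33.8% at D and 43.8% at E. The nuclear IDR median was 39.8%, with 31.3% to 51.1% covering the middle 90% of peaks, so all 5 lay inside it. Tiles of chromosome IV had a median of 33.8%. At none of the 5 peaks did any of the 171 31-mers of the sequence occur elsewhere in the genome, and 95.9% of nuclear IDR windows were likewise unique.

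Few genes of the 2 pathways had a thresholded peak, and hyl-1 had none. A summit anywhere in the gene counted, so longer genes have more room for one. Of 25 sphingolipid genes, 2 had an IDR summit in the gene or within 500 bp of its start, and 22 had a pooled one. They were sms-1, a sphingomyelin synthase gene (signal 49.1, rank 246), and gba-3, a glucocerebrosidase homologue (48.1, rank 264). Over 19973 coding genes the shares were 1.63% for IDR and 49.9% for pooled summits. Of the other ceramide synthase genes, hyl-2 had a best pooled signal of 14.6 at rank 5985 and lagr-1 had 9.6 at rank 16503. Both were lower than the 25.85 of hyl-1.

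Of 46 genes for cGMP signalling that were found, 2 had an IDR summit and 33 a pooled one, beside 1.63% and 49.9% of coding genes. The 2 with an IDR summit were pkg-2, for which the region was chosen, and pde-4 (signal 54.6, rank 180). The phosphodiesterase family of pde-4 is known for breaking down cAMP. egl-4, which encodes the other cGMP-dependent protein kinase, had 17 pooled summits and no IDR summit, with a best signal of 29.6 at rank 1002. The 2 kinase genes thus had similar numbers of pooled summits, 15 and 17, the latter over a longer gene, and differed in how high these were. Within 10 kb of the gene, 6 sphingolipid and 10 cGMP genes had an IDR summit, against 11.5% of coding genes, and hyl-1 is counted there with 3 peaks of pkg-2.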

How the data were processed

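ChIP-seq peak lists for CEY-2 with a GFP tag were analysed from 4 libraries of 3 biological replicates. Column 7 of the deposited lists holds a signal value made by the authors' peak caller, here compared only among peaks of 1 list. Depth is unknown. Which caller and aligner made the lists, and what exactly column 7 measures, is not given in the sources used here. Coordinates are in ce11 and 1-based. The ce10 lists were not converted.

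A summit is the start plus the deposited offset. Summits were placed against Ensembl release 115 exons, and sequence came from the RefSeq WBcel235 genome. A summit recurred where another list had one within 200 bp. Python 3.11.15, pandas 2.3.3 and numpy 2.4.6 were used, and the functions were checked on planted positions. No test was made.

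The region, gene lists and words were chosen with earlier results of these data known. Named genes are both genes, others in the region, the nearest gene starts, pathway genes with an IDR summit, their close relatives and the 5 genes with most intronic IDR summits. The 2 piRNA genes of the region were left out, and cng-4 was not matched. Names outside the rule are those of transcripts and T28B11.1, which was chosen after its values were seen. Alternatives varied the flanks, distance, list, build, classes and word window.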

Additional observations from a re-analysis of the deposited data

How the results depend on the processing

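Of 43 alternatives, 29 left the value near the main one. The 5 thresholded summits were the same number with flanks of 5 or 20 kb, within the genes alone and above the median signal. The top peaks of replicate 1 alone gave 3, and those of replicate 3 gave 5, with the peak of pooled rank 788 in place of B. Recurrence with each replicate's top peaks gave 2, and leaving out 1 replicate gave 2 to 4, the 4 without replicate 1. With any 1 replicate left out, 5 of 5 recurred in the full lists, and within 100 bp 4 did. The highest peak had signals of 58.5, 74.0 and 28.5 in the replicates' own lists, whose scales differ. In ce10 the highest peak of chromosome IV had 154.1, and 1 run of 5 IDR summits spanned 7391 bp. GAGAGA was at 1 peak within 50 bp and TGATAA at 1. CACGTG was at 3 within 200 bp and at 2 in the whole interval. Within 500 bp of the start alone, 0 sphingolipid and 0 cGMP genes had a summit, and within 10 kb 6 and 10. The alternatives for CACGTG, for TGATAA, for the genes with intronic summits and for the top of all 3 replicates were chosen after seeing the data. The causes were not tested. No paired analysis was possible because all libraries form 1 group and no result comes from a test.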

Other observations

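Between the end of pkg-2 and the start of hyl-1, each replicate list had a summit of fairly good rank, while the pooled list had none of similar rank. Replicate 1 had one at 8538213 (signal 12.08, rank 1582), replicate 2 had one at 8538884 (12.04, rank 1858) and replicate 3 had one at 8538966 (7.11, rank 1489). These lay in the upper 5.27%, 6.19% and 6.88% of their lists. The only pooled summit between the genes, at 8538726, had a signal of 8.74 and rank 19877, in the lowest part of that list at 78.0%. Just inside the end of pkg-2, at 8538101, the pooled list had a further summit (signal 10.89, rank 12422). It lay within 200 bp of the replicate 1 summit at 8538213. The summits of replicates 2 and 3 were 82 bp apart, and that of replicate 1 was 671 bp from that of replicate 2. Each replicate also had another summit between the genes. In replicate 2 it lay at 8538683 (signal 11.14, rank 2248), 43 bp from the pooled summit at 8538726. In replicate 3 it lay at 8538238 (2.4, rank 17491), 25 bp from the summit of replicate 1 given above, and in replicate 1 at 8538438 (7.09, rank 9186). The position was chosen after its values were seen, and the difference between the lists was not tested.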
